A study of Mus musculus with 48 samples.

Results

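The heat shock proteins and DnaJ co-chaperones were 64 of the 14125 genes in the deposited count table. They were all genes whose mapped symbol begins with Hspa, Hspb, Hspd, Hspe or Hsph, with Hsp90, or with Dnaja, Dnajb or Dnajc and a digit, and 1 pseudogene among the 65 matching symbols was left out. By family, 7 were small heat shock proteins, 10 were HSP70 members, 3 HSP110, 3 HSP90, and 2 were the mitochondrial pair HSP60 and HSP10. The DnaJ members were 4 of class A, 9 of class B and 24 of class C, and 2 genes named for binding partners (Hspbp1 and Hspbap1) completed the set. All 64 passed the filter on low counts, and 10 further protein-coding genes of the annotation that match the rule were not analysed here.

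The samples were mixed gastrocnemius, a calf muscle, of 48 male C57BL6J mice. In Cort_ATGLi (n = 14) the mice drank corticosterone at 100 ug/ml for 2 weeks and ate a diet holding 571 mg/kg atglistatin. This compound inhibits adipose triglyceride lipase (ATGL), which takes the first fatty acid off stored fat. In Cort_CON (n = 14) they drank corticosterone and ate the diet without the inhibitor. EtOH_ATGLi (n = 10) had vehicle water with 1% ethanol and the atglistatin diet, and EtOH_CON (n = 10) had vehicle water and the diet without it. Corticosterone is the glucocorticoid that the mouse adrenal gland secretes. The labels do not say if ethanol was present in the corticosterone water, so ethanol and corticosterone cannot be told apart. The labels call 9 of the Cort_CON mice diabetic and the other 5 nondiabetic, and all mice of the other 3 groups nondiabetic. Each library carries glucose and insulin values of its own and was taken as 1 mouse, although no label says so, and p-values measure the spread between these libraries. Libraries primed at the 3′ end of polyadenylated RNA were sequenced as 50 bp forward reads, so a level is not scaled by gene length and levels of different genes were not compared.

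Heat shock proteins are molecular chaperones that keep other proteins folded. HSP70 proteins bind and release unfolded stretches of a client in cycles of ATP hydrolysis, DnaJ proteins bring clients to HSP70 and start the hydrolysis, and HSP110 proteins exchange the spent nucleotide. HSP90 acts later on selected clients, among them the glucocorticoid receptor, and small heat shock proteins hold unfolding proteins without ATP, several of them at the Z-disc and the filaments of muscle. Heat shock factors such as HSF1 switch on the inducible members by binding repeated 5-base units at their promoters.

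The promoters of 5 members are shown because Hspa1a, Hspb7 and Hspa1b had the largest corticosterone changes on the control diet, Hspb1 is the inducible small heat shock protein, and Hspe1 holds the long form of the element that HSF1 binds while its level differed little. Each stretch is the 150 bases before the transcription start in RefSeq's GRCm38.p6 table, read 5′ to 3′ on the gene's strand. Capitals mark a pair of neighbouring heat shock units, spelled GAANNTTC or TTCNNGAA.
Hspa1a promoter, chr17:34972157-34972306, minus strand: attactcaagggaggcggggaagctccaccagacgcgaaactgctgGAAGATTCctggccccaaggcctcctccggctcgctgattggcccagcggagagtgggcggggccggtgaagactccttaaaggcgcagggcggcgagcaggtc
Hspa1b promoter, chr17:34959239-34959388, minus strand: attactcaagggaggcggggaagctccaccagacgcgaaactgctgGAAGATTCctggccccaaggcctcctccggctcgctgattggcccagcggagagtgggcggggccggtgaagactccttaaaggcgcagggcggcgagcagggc
Hspb1 promoter, chr5:135887769-135887918, plus strand: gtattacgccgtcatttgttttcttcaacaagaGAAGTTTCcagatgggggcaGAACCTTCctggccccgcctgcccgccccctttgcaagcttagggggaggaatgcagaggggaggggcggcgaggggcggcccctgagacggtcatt
Hspb7 promoter, chr4:141420629-141420778, plus strand: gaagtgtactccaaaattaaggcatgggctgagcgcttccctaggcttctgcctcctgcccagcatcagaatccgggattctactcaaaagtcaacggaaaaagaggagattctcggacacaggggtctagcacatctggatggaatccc
Hspe1 promoter, chr1:55087998-55088147, plus strand: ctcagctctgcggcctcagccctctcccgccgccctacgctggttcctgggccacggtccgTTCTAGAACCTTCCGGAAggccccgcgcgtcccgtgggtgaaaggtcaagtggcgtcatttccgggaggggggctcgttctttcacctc

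The stretches of Hspa1a and Hspa1b were identical at 149 of 150 bases (99.3%), with the unit pair beginning 104 bases before the start in both. Hspb1 held 2 pairs, beginning 117 and 97 bases before the start, and the stretch of Hspb7 held none. In Hspe1 the capitals are 3 overlapping pairs, which also lie in the window of Hspd1 on the other strand, since both genes start from the same stretch of chromosome 1. RefSeq windows running from 250 bases before to 50 bases after the start were found for 52 of the 64 members, 68 windows in all. A unit pair, searched on both strands, occurred in 25.0% of those 68 windows, against 15.1% of all 32851 windows of that table. A run of 3 units, which contains the pair, occurred in 8.82% of the members' windows, those of Hspd1, Hspe1, Dnajb6 and Hsph1, against 0.603% of all windows. Overlapping windows of Dnajb6 held the same run, as did those of Hsph1, and Hspd1 and Hspe1 share theirs. These runs were therefore counted more than once. The palindromic core that glucocorticoid receptors bind, searched as ACANNNTGT, occurred in 2.94% of the members' windows, those of Hspb3 and Hspa1l, against 6.85% of all windows. These are counts of letters and show neither binding nor its absence.

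Total counts were 10453888 to 24034481 per library. The 6 general muscle fibre markers summed to between 44603.1 and 74604.9 CPM (counts scaled to library size), so markers of the labelled tissue were high in every library. Libraries p41 (Cort_ATGLi), p01 (EtOH_CON) and p45 (Cort_CON) most often stood at the edge of their groups, being the highest or lowest for 34, 33 and 28 of the 64 members, against 22 or fewer for every other library. Their mean correlations with the rest of their groups over all genes were 0.954, 0.9532 and 0.9628, and Cort_ATGLi p24 (0.9627) was as low as p45. Where leaving out p41, p45 and p01 together changed the call of a member named below in a corticosterone comparison, the value without them is given beside it. Every deposited count of 47 libraries was an even number, a feature no source explains, and halving the counts left 29 and 25 members called in the corticosterone comparisons described next. In all of these bulk samples, fewer cells of a type and less RNA per cell cannot be told apart.

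On the diet without inhibitor, corticosterone mice differed from vehicle mice in 29 of the 64 members (Cort_CON against EtOH_CON, edgeR's quasi-likelihood test, Benjamini-Hochberg adjusted p under 0.05 over 12592 genes, the test behind every adjusted p of a fold change given here). Of these, 22 were higher in Cort_CON (34.4% of members, against 18.9% of all genes tested) and 7 were lower (10.9%, against 19.5% of all genes). The median log2 fold change of the members was 0.11, against -0.0011 over all genes. On the atglistatin diet, Cort_ATGLi mice differed from EtOH_ATGLi mice in 25 members. There 19 were higher (29.7%, against 15% of all genes) and 6 lower (9.38%, against 15%), again with a median of 0.11. With upper-quartile scaling the counts were 17 higher and 7 lower on the control diet and 13 higher and 8 lower on atglistatin, while all genes split into 1906 higher and 2915 lower, and 1485 higher and 2259 lower. The 2 comparisons share no mice, and 12 members were higher in both, 4 were lower in both and none went opposite ways. A further 13 were called on the control diet alone and 9 on atglistatin alone, and no member passed the test of the interaction described below, so a difference between the diets was not shown. The overlap of calls over all genes was not counted, so the overlap among members is not shown to be particular to them.

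**Figure D1:**
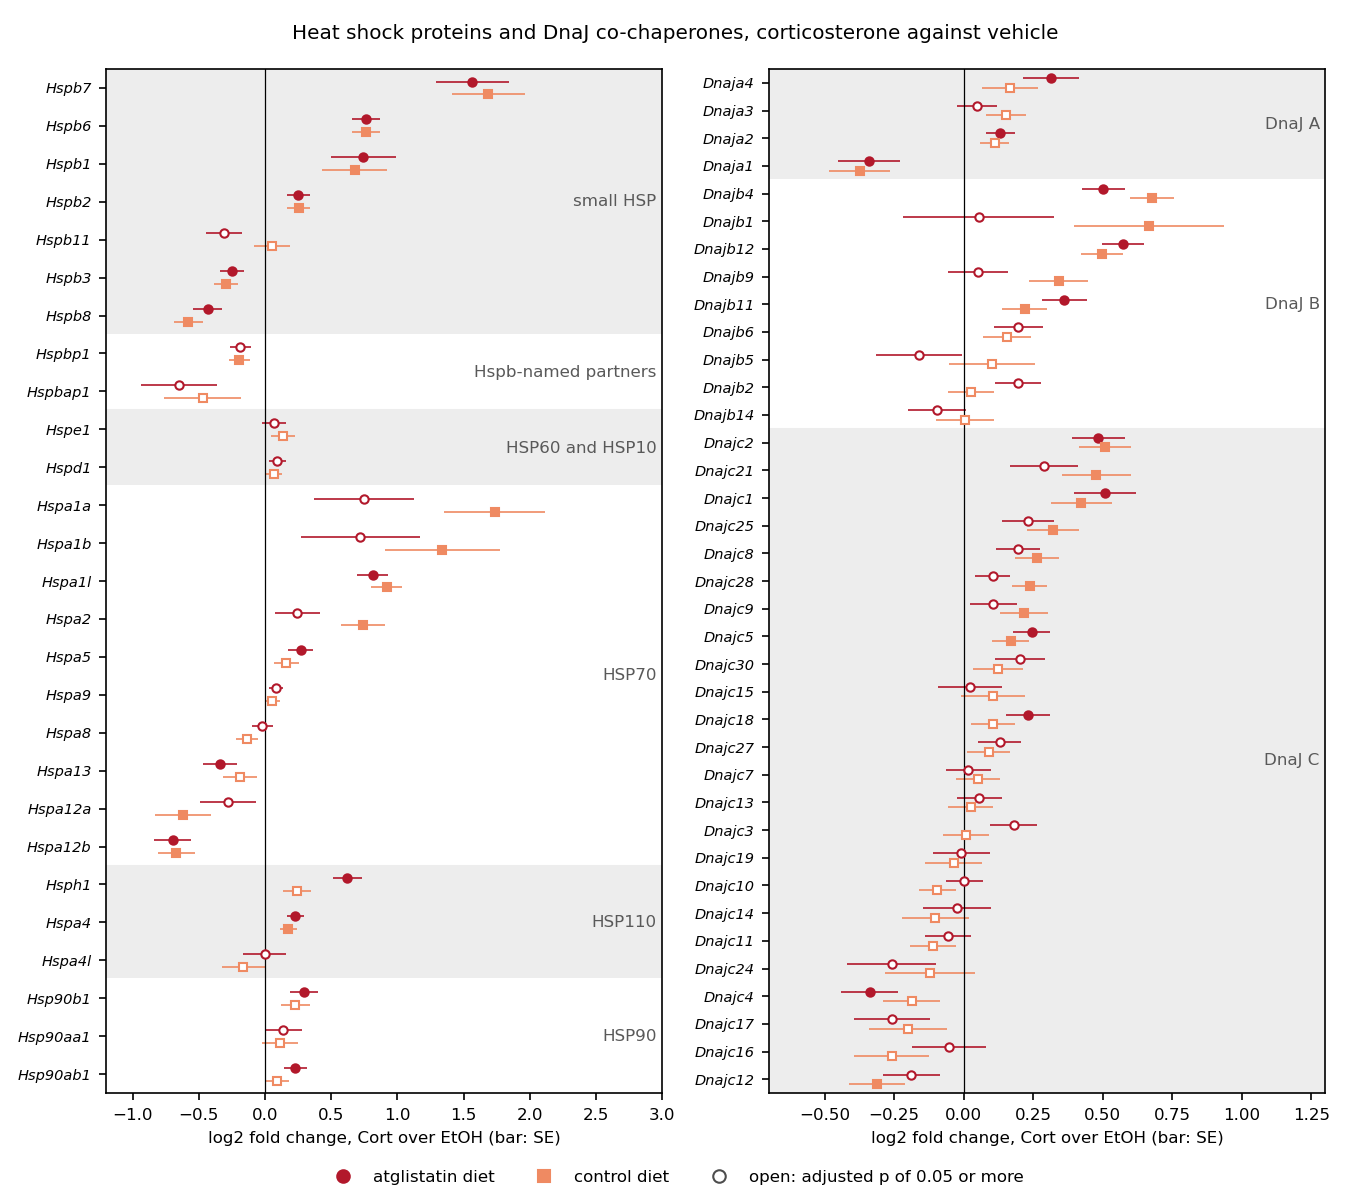
Log2 fold changes of the members by family, Cort_CON against EtOH_CON and Cort_ATGLi against EtOH_ATGLi, with error bars of 1 SE and filled points for adjusted p under 0.05. Hspb7 (1.69 and 1.56) lay far to the right on both diets, Hspa1a was called on the control diet (1.73) and not on atglistatin (0.75), and Hspa12b (-0.67 and -0.70) lay furthest to the left on both.

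The small heat shock proteins had the highest share of called members, with 4 higher and 2 lower of 7 on either diet. That was 57.1% higher and 28.6% lower, against 18.9% and 19.5% of all genes on the control diet. On atglistatin 15% of all genes were higher and 15% lower. Hspb7, a heart and muscle member that in mouse binds the actin crosslinker filamin C, is encoded at chr4:141420779-141425311 (GRCm38). On the control diet its level had a lowest, median and highest value of 117.2, 168.0 and 751.9 CPM in Cort_CON, against 46.8, 59.4 and 95.4 CPM in EtOH_CON. On atglistatin the values were 115.8, 193.3 and 671.2 CPM in Cort_ATGLi, against 45.3, 79.7 and 109.0 CPM in EtOH_ATGLi. The corticosterone and vehicle mice did not overlap on either diet, and p45 and p41 stood far above the rest of their groups, whose next values were 326.9 and 316.5 CPM. On the log2 scale Hspb7 rose by 1.69 ± 0.278 in Cort_CON (SE; adjusted p 3.2e-06), a 3.22-fold difference, and on atglistatin by 1.56 ± 0.276 (adjusted p 1.65e-05). Without p41, p45 and p01 together, a choice made after seeing the data, the changes were 1.34 (adjusted p 1.4e-07) on the control diet and 1.33 (adjusted p 9.42e-08) on atglistatin.

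Hspb6 (HSP20), which in muscle is a target of cyclic nucleotide-dependent kinases, rose on both diets. Its lowest, median and highest levels were 1863.0, 2477.2 and 3542.7 CPM in Cort_CON, against 1197.0, 1488.6 and 1932.2 CPM in EtOH_CON. In Cort_ATGLi they were 1711.8, 2131.7 and 3978.6 CPM, against 1087.5, 1400.1 and 1549.6 CPM in EtOH_ATGLi. Groups overlapped slightly on the control diet and not at all on atglistatin. The log2 fold change was 0.76 ± 0.106 on either diet (adjusted p 3.86e-08 on the control diet and 6.7e-08 on atglistatin). The gene overlaps Lin37 and Proser3, which lie on the other strand, and the strand setting of the counting is not known.

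Hspb1 (HSP25 in mouse, HSP27 in human), an inducible chaperone of actin and intermediate filaments, rose with wide overlap. Levels in Cort_CON were 62.5, 112.1 and 306.5 CPM (lowest, median, highest), against 49.4, 81.9 and 108.8 CPM in EtOH_CON. In Cort_ATGLi they were 67.7, 100.2 and 505.4 CPM, against 61.7, 75.2 and 94.8 CPM in EtOH_ATGLi. The highest values came from p45 and p41, and the lowest EtOH_CON value from p01. The changes of 0.68 ± 0.245 (adjusted p 0.0245) and 0.74 ± 0.245 (adjusted p 0.0183) lost the call without p45 (0.52, adjusted p 0.0719) or without p41 (0.36, adjusted p 0.0876). With p41, p45 and p01 all left out, Hspb1 was called on both diets at smaller changes, 0.46 (adjusted p 0.00312) and 0.37 (adjusted p 0.0178).

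Hspb2, a muscle member that binds the myotonic dystrophy kinase, rose by 0.26 ± 0.0858 (adjusted p 0.0144) in Cort_CON and by 0.25 ± 0.086 (adjusted p 0.0216) in Cort_ATGLi. It overlaps Cryab on the other strand, and Cryab, a small heat shock protein outside the naming rule, rose by 1.05 and 1.02, so reads of one could have been counted to the other. Without p41, p45 and p01 the Hspb2 change on the control diet was 0.19 (adjusted p 0.0628). Hspb3, the partner with which Hspb2 forms a complex in muscle, moved the other way. It fell by 0.29 ± 0.0898 in Cort_CON (adjusted p 0.00719) and by 0.25 ± 0.0898 in Cort_ATGLi (adjusted p 0.0273), a call that was lost without EtOH_ATGLi p06 or p09.

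Hspb8 (HSP22), which with Bag3 and HSP70 takes part in the selective autophagy of damaged filament proteins, was the most strongly lowered small heat shock protein. Its lowest, median and highest levels were 552.2, 735.3 and 978.3 CPM in Cort_CON, against 940.2, 1119.7 and 1506.8 CPM in EtOH_CON. The atglistatin mice had 294.3, 695.0 and 1249.7 CPM in Cort_ATGLi, against 812.0, 943.8 and 1179.5 CPM in EtOH_ATGLi. Only the top of Cort_CON, p45, reached the vehicle range on the control diet, and on atglistatin p41 exceeded all vehicle mice. Hspb8 fell by 0.58 ± 0.111 on the log2 scale in Cort_CON (adjusted p 2.57e-05) and by 0.43 ± 0.111 in Cort_ATGLi (adjusted p 0.00183). Hspb11, a ciliary transport protein that shares only the name, had log2 fold changes of 0.05 (adjusted p 0.8) and -0.31 (adjusted p 0.0767).

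**Figure D2:**
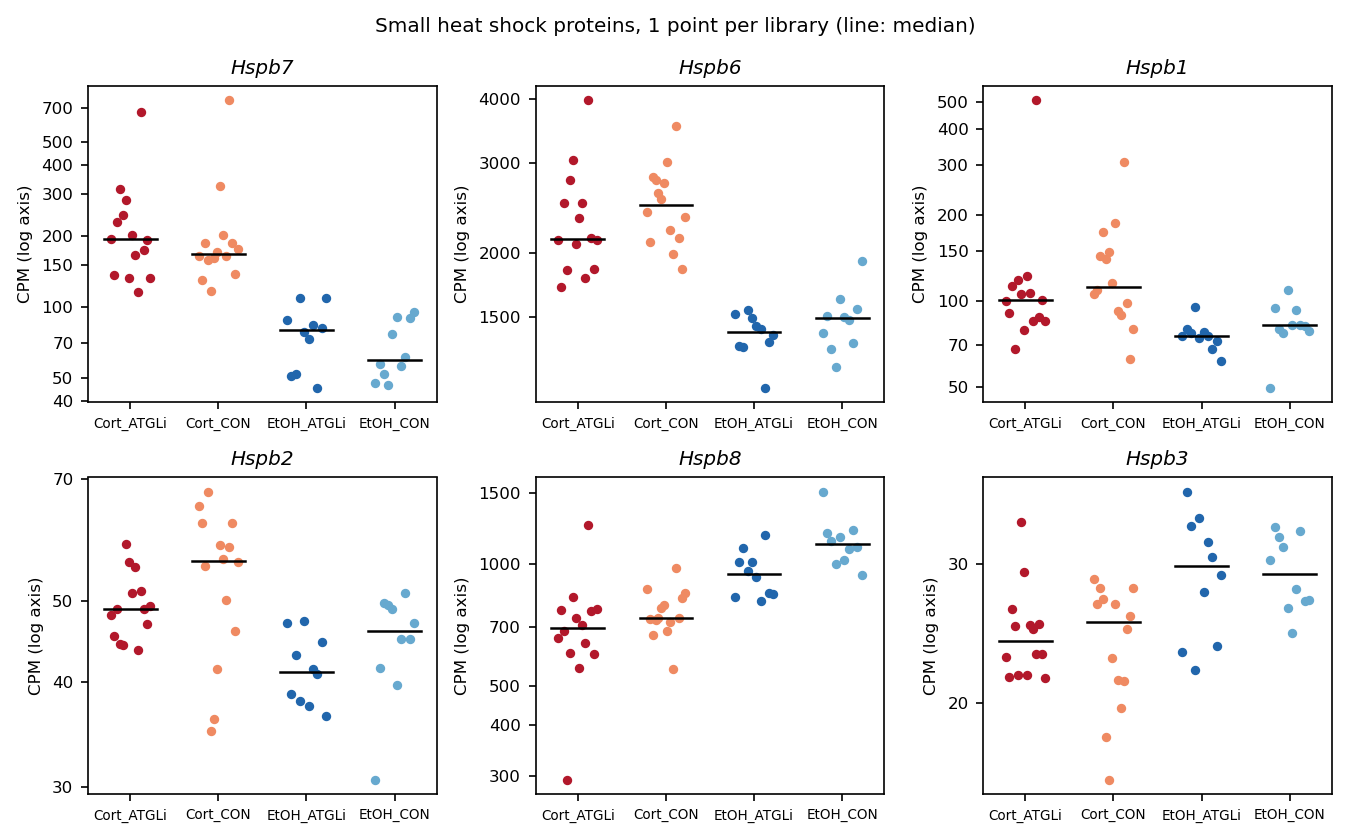
CPM of Hspb7, Hspb6, Hspb1, Hspb2, Hspb8 and Hspb3 in each library on log axes, by group, with the median as a line. Hspb7 and Hspb6 sat higher in corticosterone mice on both diets, Hspb8 and Hspb3 lower, and the top points of Hspb7 and Hspb1 came from Cort_CON p45 and Cort_ATGLi p41.

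Among the 10 HSP70 genes, 4 were higher and 2 lower on the control diet, and 2 were higher and 2 lower on atglistatin. On the control diet this was 40% higher and 20% lower, against 18.9% and 19.5% of all genes. On atglistatin it was 20% in either direction, against 15% of all genes in either direction. Hspa1a and Hspa1b encode the stress-inducible cytosolic HSP70. They are near-identical neighbours on chromosome 17, and how the counting divided reads between them is not known, so their separate values are uncertain. Hspa1a had lowest, median and highest levels of 3.48, 11.2 and 75.7 CPM in Cort_CON, against 3.39, 5.17 and 11.2 CPM in EtOH_CON. On atglistatin the values were 3.51, 10.4 and 21.1 CPM in Cort_ATGLi, against 3.38, 5.45 and 11.2 CPM in EtOH_ATGLi. Ranges overlapped on both diets, and 11 of the 14 Cort_CON libraries and 12 of the 14 Cort_ATGLi libraries lay above the mean of their vehicle mice. The change was 1.73 ± 0.38 on the control diet (adjusted p 0.000263) and 0.75 ± 0.377 on atglistatin (adjusted p 0.133), where the test was not passed.

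The large mean in Cort_CON came from a few mice. Libraries p30, p29, p32 and p33 had 75.7, 47.7, 44.5 and 24.3 CPM of Hspa1a, and the other 10 lay between 3.48 and 17.2 CPM. The labels call p30 diabetic and p29, p32 and p33 nondiabetic, and the total counts of these 4 libraries (12583686 to 19532704) were within the range of their group. Leaving out p29, p30 and p32 together, chosen after their values were seen, gave an Hspa1a change of 0.82 (adjusted p 0.0172), less than the 1.73 of all libraries but still called.

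Hspa1b was also high in p30, p29 and p32, while its level in p33 lay inside the EtOH_CON range. It had 2.54, 5.17 and 47.7 CPM (lowest, median, highest) in Cort_CON, against 1.57, 3.53 and 9.83 CPM in EtOH_CON, with 47.7, 30.5, 27.4 and 8.43 CPM in p30, p29, p32 and p33. In Cort_ATGLi it had 2.06, 4.36 and 14.3 CPM, against 1.39, 2.99 and 5.93 CPM in EtOH_ATGLi. Ranges overlapped on both diets, and the highest values of the corticosterone groups stood well above their vehicle ranges. Hspa1b rose by 1.34 ± 0.434 in Cort_CON (adjusted p 0.0121), and the call was lost without p30 (0.91, adjusted p 0.0605) and without p29, p30 and p32 (0.11, adjusted p 0.809). The change on atglistatin was 0.72 (adjusted p 0.238).

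Hspa1l, an HSP70 gene beside Hspa1a that is best known from testis, rose without such extremes. It had 16.7, 21.8 and 33.7 CPM (lowest, median, highest) in Cort_CON, against 8.81, 12.4 and 19.1 CPM in EtOH_CON, and 17.0, 23.2 and 29.8 CPM in Cort_ATGLi, against 11.2, 13 and 15.8 CPM in EtOH_ATGLi. Groups did not overlap on atglistatin and overlapped at the edges on the control diet. The log2 fold changes were 0.92 ± 0.116 (adjusted p 2.95e-09) and 0.81 ± 0.115 (adjusted p 1.06e-07), although a predicted gene on the other strand, Gm10501, overlaps it. Hspa2, a chaperone needed for meiosis in the mouse testis, rose by 0.74 ± 0.167 in Cort_CON (adjusted p 0.000302), while its change in Cort_ATGLi was 0.25 (adjusted p 0.281).

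Hspa12b, a distant HSP70 relative known from endothelial cells, fell on both diets. Its levels were low, with 1.46, 2.92 and 4.01 CPM (lowest, median, highest) in Cort_CON, against 3.52, 4.72 and 5.85 CPM in EtOH_CON, and 1.85, 3.36 and 4.51 CPM in Cort_ATGLi, against 3.48, 5.01 and 9.24 CPM in EtOH_ATGLi. All 14 corticosterone libraries of either diet lay below the mean of their vehicle mice. It fell by 0.67 ± 0.143 (adjusted p 0.000145) and by 0.70 ± 0.141 (adjusted p 8.87e-05). Of 10 endothelial markers, 5 were lower and 1 higher on either diet, and none was at 0 in every library. Over all genes, 19.5% were lower and 18.9% higher on the control diet, and 15% lower and 15% higher on atglistatin. The markers summed to 128.8 to 286.0 CPM in Cort_CON, against 191.3 to 237.7 CPM in EtOH_CON, and to 152.0 to 264.4 CPM in Cort_ATGLi, against 150.6 to 258.8 CPM in EtOH_ATGLi. Their part in the Hspa12b difference was not tested. Hspa12a, its paralog, fell by 0.62 in Cort_CON (adjusted p 0.0154), with a change of -0.28 in Cort_ATGLi (adjusted p 0.345).

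The housekeeping HSP70 genes moved little. Hspa8, the constitutive cytosolic form that uncoats clathrin, had changes of -0.14 ± 0.0799 (adjusted p 0.178) and -0.02 ± 0.0801 (adjusted p 0.883). Without the 3 Cort_CON libraries p29, p30 and p32, Hspa8 was called lower on the control diet (-0.23, adjusted p 0.0187). Hspa9, the mitochondrial form, had changes of 0.06 ± 0.0543 (adjusted p 0.441) and 0.08 ± 0.0543 (adjusted p 0.268). For Hspa5, the HSP70 of the endoplasmic reticulum, the control diet gave 0.16 ± 0.095 (adjusted p 0.179), and on atglistatin it rose by 0.27 ± 0.0952 (adjusted p 0.0249), a call lost without p41 (0.18, adjusted p 0.0754) and held without p41, p45 and p01 together (0.18, adjusted p 0.0231). Hspa13, a microsomal form, fell in Cort_ATGLi by 0.34 (adjusted p 0.0364) and had a change of -0.19 in Cort_CON (adjusted p 0.25).

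Of the 3 HSP110 genes, Hspa4 rose on both diets, by 0.18 ± 0.0629 in Cort_CON (adjusted p 0.0223) and 0.23 ± 0.063 in Cort_ATGLi (adjusted p 0.00365). The control-diet call was lost without Cort_CON p35, Cort_CON p45 or EtOH_CON p04. Hsph1, the inducible HSP110, had lowest, median and highest levels of 32.8, 47.3 and 89.5 CPM in Cort_ATGLi, against 28.3, 32.2 and 36.5 CPM in EtOH_ATGLi. On the control diet they were 40.3, 43.5 and 58.2 CPM in Cort_CON, against 31.7, 37.4 and 50.5 CPM in EtOH_CON. Corticosterone groups were higher and overlapped their vehicle groups on both diets. The rise of 0.62 ± 0.108 on atglistatin was called (adjusted p 7.74e-06), and the change of 0.24 ± 0.107 on the control diet was not (adjusted p 0.0656). The interaction of 0.38 between them had an adjusted p of 0.766. Hspa4l, a paralog of Hspa4, had changes of -0.16 (adjusted p 0.448) and -0.00 (adjusted p 0.995).

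Of the 3 HSP90 genes, none was called on the control diet, where 38.4% of all genes were called in either direction. On atglistatin 2 rose (66.7%, against 15% of all genes). Hsp90aa1, the inducible cytosolic form, had changes of 0.11 ± 0.139 (adjusted p 0.552) and 0.14 ± 0.14 (adjusted p 0.498). Its highest Cort_CON levels, 60.8, 60.2, 56.4 and 47.9 CPM, came from p29, p30, p32 and p33, the mice with high Hspa1a. Hsp90ab1, the constitutive cytosolic form, rose by 0.23 ± 0.0887 in Cort_ATGLi (adjusted p 0.0434), a call that 15 of 24 single libraries could undo and that was lost without p41, p45 and p01 (0.18, adjusted p 0.0554). Its change in Cort_CON was 0.09 (adjusted p 0.437). Hsp90b1, the endoplasmic reticulum form GRP94, rose by 0.29 ± 0.106 in Cort_ATGLi (adjusted p 0.0301), with a change of 0.23 ± 0.106 in Cort_CON (adjusted p 0.0779). The atglistatin call was lost when any of 5 libraries, p41 among them, was left out singly, and held without p41, p45 and p01 together (0.23, adjusted p 0.0226). The mitochondrial chaperonin Hspd1 (HSP60) and its lid Hspe1 (HSP10), whose shared promoter holds the 3-unit element shown above, were called on neither diet. Hspd1 had changes of 0.07 ± 0.0642 (adjusted p 0.431) and 0.09 ± 0.0643 (adjusted p 0.293), and Hspe1 of 0.14 ± 0.0904 (adjusted p 0.233) and 0.07 ± 0.0902 (adjusted p 0.628).

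Among the 37 DnaJ genes, 13 were higher and 2 lower on the control diet, and 9 were higher and 2 lower on atglistatin. This put 35.1% and 24.3% of them in the higher direction, against 18.9% and 15% of all genes. The lower share was 5.41% on either diet, against 19.5% and 15% of all genes. Class A, which carries the full set of bacterial DnaJ domains, had 1 of 4 members called on the control diet and 3 on atglistatin. In either direction, 38.4% and 30% of all genes were called. Dnaja1, a cytosolic class A protein, fell by 0.37 ± 0.11 in Cort_CON (adjusted p 0.00487) and by 0.34 ± 0.11 in Cort_ATGLi (adjusted p 0.0146). Its lowest, median and highest levels were 10, 14.9 and 22.5 CPM in Cort_CON, against 15.2, 19.6 and 26.3 CPM in EtOH_CON, and 9.73, 13.6 and 19.1 CPM in Cort_ATGLi, against 13.4, 17.4 and 23.1 CPM in EtOH_ATGLi. The groups overlapped on both diets, and p32 and p30 had the 2 highest Cort_CON values. Dnaja4, a cytosolic member expressed in muscle, rose by 0.31 ± 0.1 in Cort_ATGLi (adjusted p 0.0129) and by 0.21 when p41 was left out, with a change of 0.17 in Cort_CON (adjusted p 0.186). Dnaja2, a cytosolic paralog of Dnaja1, rose by 0.13 in Cort_ATGLi (adjusted p 0.0481) and had a change of 0.11 in Cort_CON (adjusted p 0.0842). Dnaja3, the mitochondrial class A protein, had changes of 0.15 (adjusted p 0.0957) and 0.05 (adjusted p 0.677), and without p41, p45 and p01 it was called on the control diet (0.24, adjusted p 0.00256).

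Class B held 5 higher and no lower members on the control diet, and 3 higher and no lower on atglistatin. The shares called higher were 55.6% and 33.3%, against 18.9% and 15% of all genes. Dnajb4, a cytosolic partner of HSP70 whose loss causes a myopathy in human, had lowest, median and highest levels of 42.6, 50.5 and 66.9 CPM in Cort_CON, against 29.2, 31.4 and 36.2 CPM in EtOH_CON. On atglistatin they were 34.5, 48 and 56.1 CPM in Cort_ATGLi, against 27.2, 32.1 and 41 CPM in EtOH_ATGLi. Groups did not overlap on the control diet. Dnajb4 rose by 0.68 ± 0.0784 (adjusted p 2.92e-10), a 1.6-fold difference, and by 0.50 ± 0.078 (adjusted p 8.31e-07). Dnajb12, an endoplasmic reticulum membrane protein that recruits cytosolic HSP70 in membrane protein quality control, had 37.5, 48.5 and 60.5 CPM in Cort_CON, against 29.8, 34.8 and 38.3 CPM in EtOH_CON. In Cort_ATGLi the values were 43.6, 50.9 and 62.3 CPM, against 29.7, 35.4 and 38.3 CPM in EtOH_ATGLi, without overlap. Dnajb12 rose by 0.50 ± 0.0755 (adjusted p 3.09e-07) and by 0.57 ± 0.0756 (adjusted p 1.96e-08).

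Dnajb11 (ERdj3), a soluble partner of Hspa5, rose by 0.36 ± 0.0815 in Cort_ATGLi (adjusted p 0.0004), where the groups did not overlap. On the control diet it rose by 0.22 ± 0.0811 (adjusted p 0.027), with the call lost without any of 6 single libraries. Dnajb9 (ERdj4), another endoplasmic reticulum partner of Hspa5, rose by 0.34 ± 0.107 in Cort_CON (adjusted p 0.00905) and had a change of 0.05 in Cort_ATGLi (adjusted p 0.767). Dnajb6, whose human variants cause a limb-girdle muscular dystrophy, had changes of 0.16 (adjusted p 0.16) and 0.20 (adjusted p 0.0841), and without p01 it was called on the control diet (0.22, adjusted p 0.0314). Dnajb5, a cytosolic member present in muscle, had changes of 0.10 (adjusted p 0.646) and -0.16 (adjusted p 0.474). Dnajb2, a member best known from neurons, had changes of 0.03 (adjusted p 0.829) and 0.19 (adjusted p 0.0707), and Dnajb14, a relative of Dnajb12, of 0.00 (adjusted p 0.984) and -0.10 (adjusted p 0.534).

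Dnajb1 (HSP40), the inducible class B partner of Hspa1a, was called on the control diet on the strength of 4 mice. It had lowest, median and highest levels of 4.35, 6.47 and 32.9 CPM in Cort_CON, against 4.59, 6.75 and 11.2 CPM in EtOH_CON. Libraries p30, p32, p29 and p33 had 32.9, 26.2, 22.1 and 16.3 CPM, and the other 10 lay between 4.35 and 9.3 CPM, inside or below the vehicle range. The rise of 0.67 ± 0.269 (adjusted p 0.0449) was lost in 11 of 24 leave-one-out fits, each of those 4 libraries included. Without p29, p30 and p32 the change was -0.03 (adjusted p 0.918). In Cort_ATGLi the levels were 5.38, 6.94 and 9.01 CPM, against 4.41, 6.67 and 10.6 CPM in EtOH_ATGLi, with a change of 0.05 (adjusted p 0.908).

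**Figure D3:**
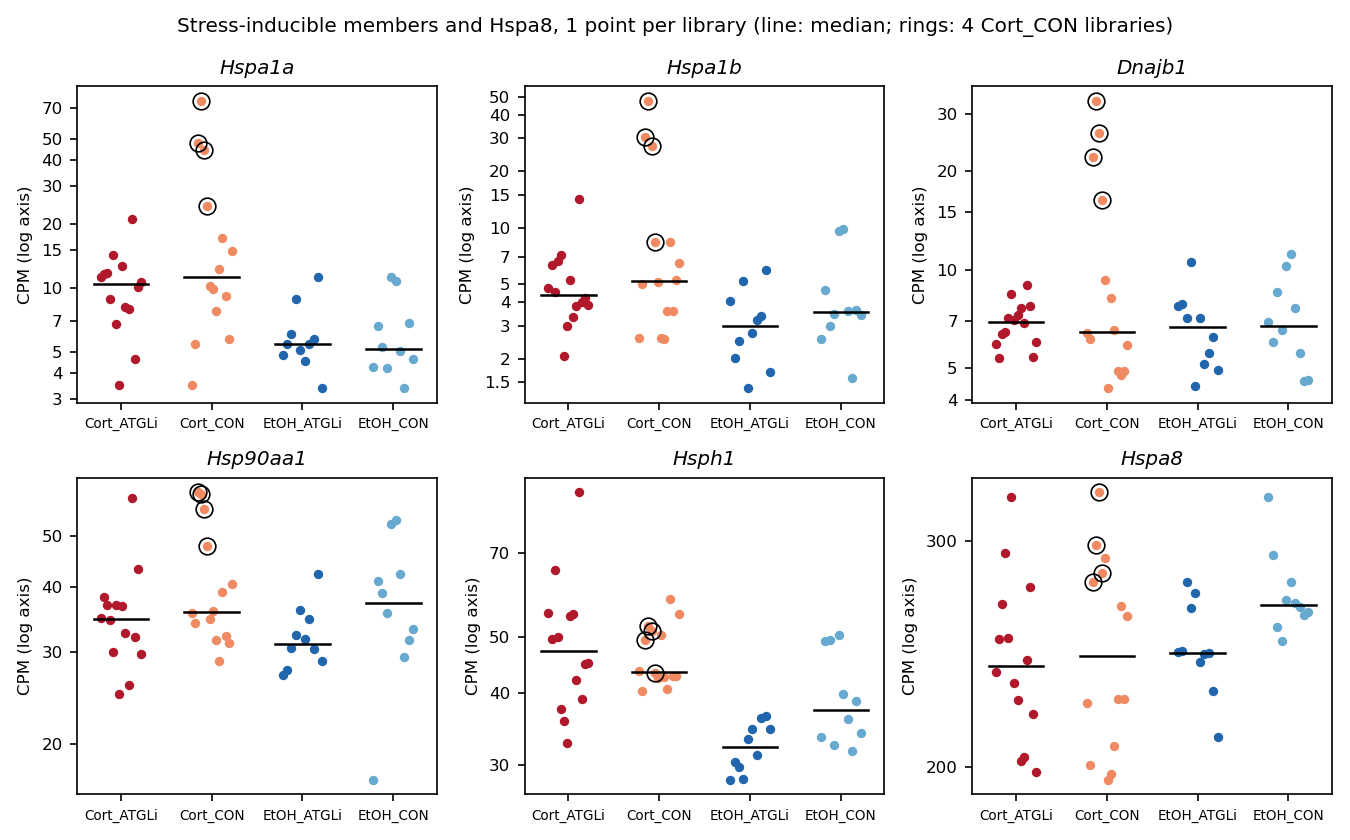
CPM of Hspa1a, Hspa1b, Dnajb1, Hsp90aa1, Hsph1 and Hspa8 in each library on log axes, by group, with the median as a line and rings around Cort_CON p29, p30, p32 and p33. The ringed libraries lead the group for Hspa1a (24.3 to 75.7 CPM) and Dnajb1 (16.3 to 32.9 CPM), and their positions are less extreme for Hsph1 and Hspa8.

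Class C, the diverse group defined by the J domain alone, had 8 higher and 1 lower of 24 on the control diet, and 4 higher and 1 lower on atglistatin. The share of class C members called higher was 33.3% on the control diet, against 18.9% of all genes, and 16.7% on atglistatin, close to the 15% of all genes. Dnajc2, a ribosome-associated factor that recruits HSP70 to nascent chains, rose by 0.51 ± 0.0946 in Cort_CON (adjusted p 1.56e-05) and by 0.48 ± 0.0944 in Cort_ATGLi (adjusted p 5.15e-05). Its median was 76.7 CPM in Cort_CON, against 56.5 CPM in EtOH_CON, and 80.4 CPM in Cort_ATGLi, against 56.2 CPM in EtOH_ATGLi. Dnajc1, an endoplasmic reticulum membrane protein that binds ribosomes, rose by 0.42 ± 0.11 (adjusted p 0.00162) and by 0.51 ± 0.11 (adjusted p 0.000254). Dnajc21, which takes part in maturation of the large ribosomal subunit, rose by 0.48 ± 0.124 in Cort_CON (adjusted p 0.00159), with a change of 0.29 ± 0.123 in Cort_ATGLi (adjusted p 0.0703) that was called without EtOH_ATGLi p09, and without p41, p45 and p01 (0.31, adjusted p 0.0119). Dnajc5, the cysteine string protein of secretory and synaptic vesicles, rose by 0.24 ± 0.0665 in Cort_ATGLi (adjusted p 0.00333). Its rise of 0.17 ± 0.0664 in Cort_CON (adjusted p 0.0371) was lost in 14 leave-one-out fits, and without p41, p45 and p01 (0.14, adjusted p 0.0841). For Dnajc3 (p58IPK), which represses the kinase PERK during endoplasmic reticulum stress, the changes were 0.01 (adjusted p 0.952) and 0.18 (adjusted p 0.101). Of the other class C members called, Dnajc25, Dnajc28, Dnajc8 and Dnajc9 rose by 0.22 to 0.32 and Dnajc12 fell by 0.31 on the control diet, and Dnajc18 rose by 0.23 and Dnajc4 fell by 0.34 on atglistatin. Of these, Dnajc8 is a splicing factor and Dnajc9 a histone chaperone. The other 12 (Dnajc7, Dnajc10, Dnajc11, Dnajc13, Dnajc14, Dnajc15, Dnajc16, Dnajc17, Dnajc19, Dnajc24, Dnajc27 and Dnajc30) were called on neither diet, with changes of -0.26 to 0.12 on the control diet and -0.26 to 0.20 on atglistatin. Leaving out p41, p45 and p01 brought Dnajc27 past the test on the control diet (0.17, adjusted p 0.0438), and Dnajc25 (0.22, adjusted p 0.0288) and Dnajc8 (0.21, adjusted p 0.037) on atglistatin.

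Hspbp1, an HSP70 nucleotide exchange factor, fell by 0.19 ± 0.0798 in Cort_CON (adjusted p 0.0486), a call that 9 of 24 single libraries could undo, and had a change of -0.19 ± 0.0801 in Cort_ATGLi (adjusted p 0.0732). Without p41, p45 and p01 it was not called on the control diet (-0.13, adjusted p 0.189) and was called on atglistatin (-0.19, adjusted p 0.0431). Hspbap1, a protein named for binding Hspb1, was barely detected, between 0.0 and 3.05 CPM, and had changes of -0.47 ± 0.29 (adjusted p 0.2) and -0.65 ± 0.286 (adjusted p 0.0783).

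Atglistatin alone left the members without a call. In EtOH_ATGLi against EtOH_CON, 0 of 64 were higher (0.0159% of all genes were) and 0 were lower (0.00794%) by edgeR's quasi-likelihood test, DESeq2 or limma voom, and 2 had an unadjusted p under 0.05. These were Hsph1 (-0.29 ± 0.116, adjusted p 0.595) and Hspb8 (-0.26 ± 0.121, adjusted p 0.714). In Cort_ATGLi against Cort_CON, 0 members were called by any of the 3 tools (0.667% of all genes were higher and 0.929% lower), and 5 had an unadjusted p under 0.05. Hspa1a differed by -1.01 ± 0.326 (adjusted p 0.111), Dnajb1 by -0.72 ± 0.244 (adjusted p 0.135) and Hspa1b by -1.10 ± 0.382 (adjusted p 0.15). Hspb11 differed by -0.32 ± 0.125 (adjusted p 0.217) and Hspa2 by -0.37 ± 0.149 (adjusted p 0.242). With the 5 nondiabetic mice standing alone for Cort_CON, 2 members were called lower (0.939% of all genes were) and none higher (0.454%). Dnajb1 was called lower in Cort_ATGLi (-1.17 ± 0.213, adjusted p 0.00113), as was Hspa1a (-1.33 ± 0.333, adjusted p 0.0287). Those 5 mice include p29, p32 and p33. Without p29, p30 and p32 the Hspa1a and Dnajb1 differences were -0.10 (adjusted p 0.951) and -0.03 (adjusted p 0.983). With all other Cort_CON mice kept and p41, p45 and p01 left out, Hspa1b was called lower (-1.34 ± 0.396, adjusted p 0.0486). In that fit 175 of all 12599 genes were higher and 227 lower, so 1 call among 64 members is near the share of all genes.

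The interaction asks whether the corticosterone change differed between the diets. It was called for 0 of 64 members by the 3 tools (0.0238% of all genes were called higher and 0.0159% lower), with 2 at an unadjusted p under 0.05 and a lowest adjusted p of 0.766. Hsph1 had an interaction of 0.38 ± 0.151, Hspa2 of -0.49 ± 0.235 (adjusted p 0.897) and Hspa1a of -0.99 ± 0.524 (adjusted p 0.927). For several members called on both diets the estimate and its error were small beside the corticosterone changes. The interaction was -0.00 ± 0.147 for Hspb6, 0.08 ± 0.106 for Dnajb12, -0.18 ± 0.109 for Dnajb4, -0.11 ± 0.161 for Hspa1l and -0.12 ± 0.372 for Hspb7 (adjusted p of at least 0.974 for these 5). For Hspa1a, Hspa2 and Hsph1 the estimates were large beside the changes themselves, so a missed test does not show that these members responded alike on both diets.

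Within Cort_CON, the 9 mice labelled diabetic were set against the 5 labelled nondiabetic. By edgeR, DESeq2 and limma voom, 0 of 64 members were called, as were 0.0% of all genes in either direction, and 2 had an unadjusted p under 0.05. Hspb2 had a difference of 0.34 ± 0.108 (adjusted p 0.864) and Dnajb1 of -0.77 ± 0.328 (adjusted p 0.962). The median of Dnajb1 was 6.13 CPM in the diabetic mice and 16.3 CPM in the nondiabetic mice. Without p30, the diabetic mouse with the highest level, Dnajb1 was called lower (-1.36, adjusted p 0.0052), the only gene called of 12579. Leaving out the highest diabetic value lowers that group by construction, so no difference is read from this call. Without p29, p30 and p32 together the Dnajb1 difference was -0.72 (adjusted p 0.999). Setting the 5 nondiabetic Cort_CON mice alone against EtOH_CON left 13 members called, 10 higher (10.7% of all genes were higher in that fit) and 3 lower (12%). Among them were Hspb7 (1.26 ± 0.283, adjusted p 0.00103), Hspb6 (0.70 ± 0.129, adjusted p 4.57e-05), Hspa1a (2.06 ± 0.362, adjusted p 4.57e-05) and Dnajb4 (0.61 ± 0.0959, adjusted p 2.62e-06). Hspb1 was not called there (0.50 ± 0.302, adjusted p 0.25). Of those 5 mice, p29, p32 and p33 had 47.7, 44.5 and 24.3 CPM of Hspa1a. The others, p36 and p49, had 7.78 and 5.74 CPM, within the EtOH_CON range of 3.39 to 11.2 CPM.

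Several inducible members varied together from mouse to mouse. After subtracting each group's mean log2 CPM, the levels of Hspa1a over the 48 libraries correlated with Hspa1b at Pearson's r = 0.87 and Spearman's rho = 0.838. The adjusted permutation p over the 6 genes set against Hspa1a was 3e-05 for both. Hsp90aa1 had r = 0.712 and rho = 0.71 (permutation p 1e-05 for r, the smallest 100000 draws can give, adjusted p 3e-05), and Dnajb1 had r = 0.687 and rho = 0.443 (adjusted permutation p 0.00015 and 0.0058). For Dnaja1, r was 0.513 and rho 0.483 (adjusted permutation p 0.00098 and 0.0021), and for Hsph1 r was 0.499 and rho 0.568 (adjusted permutation p 0.0001 and 6e-05). Hspa8 had r = 0.398 and rho = 0.356 (adjusted permutation p 0.022 and 0.025). Without the 2 libraries farthest from the median of Hspa1a, r was 0.832 for Hspa1b, 0.721 for Hsp90aa1, 0.611 for Dnajb1, 0.503 for Dnaja1 and 0.532 for Hsph1, and Hspa8 lost its call (0.331, adjusted permutation p 0.06). Without p29, p30 and p32, r and rho were 0.743 and 0.684 for Hspa1b, 0.595 and 0.544 for Hsp90aa1, 0.551 and 0.52 for Hsph1, and 0.34 and 0.333 for Dnaja1 (adjusted permutation p of 0.049 or less for each). For Dnajb1 r was 0.34 (adjusted permutation p 0.042) and rho 0.149 (adjusted permutation p 0.35), and for Hspa8 r was 0.147 and rho 0.203 (adjusted permutation p 0.39 and 0.25). Within single groups, r for Hsp90aa1 was 0.658 in Cort_ATGLi, 0.878 in Cort_CON, 0.645 in EtOH_ATGLi and 0.7 in EtOH_CON, while for Dnajb1 it was -0.0628, 0.834, 0.408 and 0.607 in the same groups. The r of Hsp90aa1 did not pass in EtOH_ATGLi (adjusted permutation p 0.14). Its rho was 0.481, 0.767, 0.418 and 0.697 in these groups and passed in Cort_CON alone (adjusted permutation p 0.0059). For Hsph1 r was 0.738, 0.571, -0.0221 and 0.687 in the same order of groups. Whether r differed between groups was not tested, and reads shared between Hspa1a and Hspa1b would raise their correlation. Library p41 had the highest Cort_ATGLi levels of Hspa1a, Hsp90aa1 and Hsph1, and the correlations were not repeated without p41, p45 and p01. Correlations of Hspa1a with all other genes were not counted, so the co-variation is not shown to be particular to these members.

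**Figure D4:**
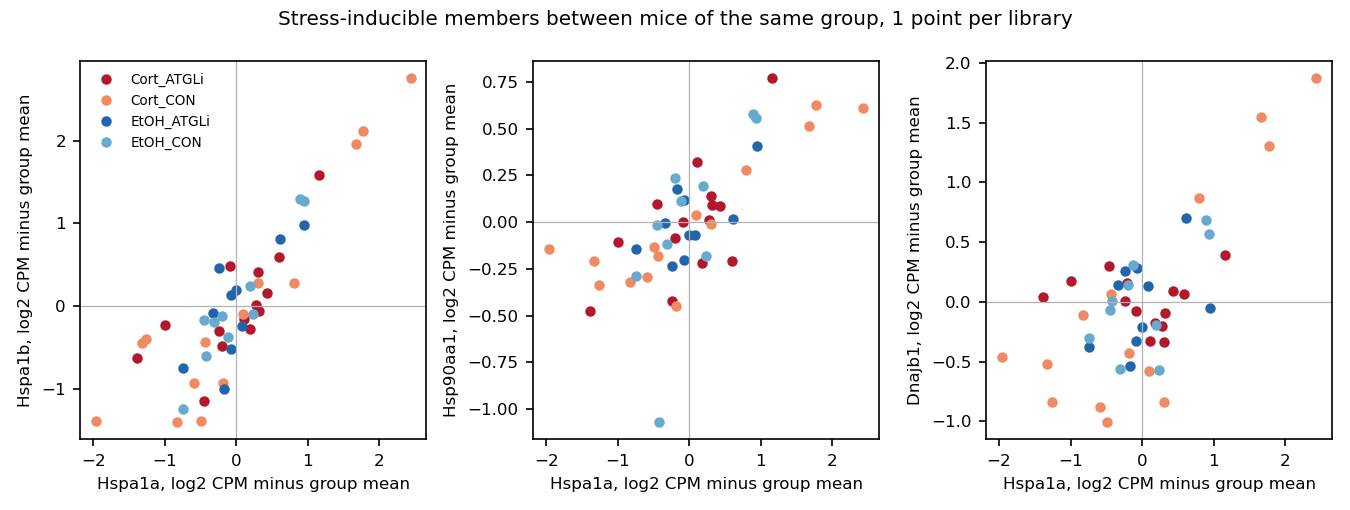
Log2 CPM of Hspa1b, Hsp90aa1 and Dnajb1 against that of Hspa1a, each with its group mean subtracted, in the 48 libraries coloured by group. All 3 rise with Hspa1a (r of 0.87, 0.712 and 0.687), and for Dnajb1 the trend leans on a few Cort_CON libraries.

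Genes that work with the members were taken from 6 partner lists. Beside the list counts below, 18.9% of all genes were higher and 19.5% lower on the control diet. On atglistatin 15% of all genes were higher and 15% lower. The lists were not tested against these shares. The list of heat shock factors also names Hsbp1, a protein that binds such factors. Of the 4 genes tested from that list, 2 were higher on the control diet and 3 on atglistatin. Hsf1, the main stress-activated factor, rose by 0.40 ± 0.0793 (adjusted p 4.9e-05) and 0.38 ± 0.0793 (adjusted p 0.00017), and Hsf2 by 0.19 (adjusted p 0.0439) and 0.22 (adjusted p 0.0243), and Hsf4 rose on atglistatin by 0.49 (adjusted p 0.0108). Of 29 co-chaperones of HSP70 and HSP90, 9 were higher and 2 lower on the control diet, and 6 were higher and 2 lower on atglistatin. Fkbp5, an HSP90 co-chaperone that is a well-known glucocorticoid target, rose by 3.53 ± 0.161 (adjusted p 3.92e-23) and 2.47 ± 0.152 (adjusted p 5.16e-18). It was also called in EtOH_ATGLi against EtOH_CON (0.78 ± 0.153, adjusted p 0.0219) and not in Cort_ATGLi against Cort_CON (-0.28 ± 0.125, adjusted p 0.322), and its interaction of -1.07 passed the test (adjusted p 0.0121). Bag2, an HSP70 exchange factor, fell by 0.87 (adjusted p 1.95e-08) and 0.86 (adjusted p 4.23e-08), and Unc45b, the myosin chaperone that works with HSP90, fell by 0.31 (adjusted p 0.000245) and 0.19 (adjusted p 0.0254). Bag3, the partner of Hspb8, had changes of 0.14 (adjusted p 0.225) and 0.20 (adjusted p 0.0847).

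The cytosolic chaperonin and prefoldin list had 8 higher and no lower of 14 on the control diet, and 5 higher and no lower on atglistatin. Endoplasmic reticulum folding genes gave 4 higher and 1 lower of 19 on either diet. On the control diet the higher count was near the 18.9% of all genes. Calr, the lectin chaperone calreticulin, rose by 0.48 (adjusted p 4.16e-05) and 0.50 (adjusted p 2.79e-05), and Ddit3, the stress transcription factor CHOP, fell by 0.81 (adjusted p 2.45e-07) and 0.35 (adjusted p 0.0238). Mitochondrial folding genes gave 3 higher and 1 lower of 13 on the control diet, and 3 higher and 2 lower on atglistatin. For genes that protect the Z-disc and filaments, 4 of 9 were higher on either diet, with 2 lower on the control diet and 1 on atglistatin. Cryab (alpha B-crystallin), the small heat shock protein of desmin filaments, rose by 1.05 ± 0.15 (adjusted p 1.15e-07) and 1.02 ± 0.15 (adjusted p 4.02e-07). Its lowest, median and highest levels were 1309.8, 1874.7 and 3822.5 CPM in Cort_CON, against 689.0, 958.6 and 1232.9 CPM in EtOH_CON, and 1555.6, 1767.4 and 3995.9 CPM in Cort_ATGLi, against 738.7, 980.5 and 1255.5 CPM in EtOH_ATGLi. Neither pair of groups overlapped. Des, the filament protein desmin, rose by 1.15 (adjusted p 1.04e-11) and 0.79 (adjusted p 3.11e-07), and Flnc, the filamin that Hspb7 binds, by 0.74 (adjusted p 0.00833) and 1.05 (adjusted p 0.000369).

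Markers of some cell types and of both fibre types also differed between corticosterone and vehicle mice. Over all genes, 18.9% were higher and 19.5% lower on the control diet, and 15% higher and 15% lower on atglistatin. The marker counts were not tested against these shares. Slow fibres, which hold more of several small heat shock proteins than fast fibres do, had 5 of 12 markers higher on the control diet and 6 on atglistatin, with none lower. Their summed levels were 1260.9 to 2871.6 CPM in Cort_CON, against 691.5 to 2567.5 CPM in EtOH_CON, and 1353.4 to 3267.1 CPM in Cort_ATGLi, against 736.7 to 1906.3 CPM in EtOH_ATGLi. Fast fibre markers were also higher for 5 of 12 on either diet, with 3 lower on the control diet and 4 on atglistatin. Fibro-adipogenic cells had 9 of 10 markers lower on the control diet and 10 on atglistatin, and summed to 867.1 to 1704.1 CPM in Cort_CON, against 1447.4 to 2274.2 CPM in EtOH_CON, and to 1002.0 to 1300.9 CPM in Cort_ATGLi, against 1327.9 to 2227.0 CPM in EtOH_ATGLi. No marker of these lists was at 0 in every library. What part these shifts had in the differences of the small heat shock proteins and the other members was not tested.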

How the data were processed

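The authors deposited a table of raw counts, whole-number read counts per gene, for 48 libraries of a 3′-end RNA kit, and a second table of the same counts scaled per library, which was not tested. Per the submitters' processing notes, their build was GRCm38 and their tools included R 3.6.1 and DESeq2 1.24.0. Aligner, counter, strand handling and gene annotation: not given in the sources used here. Symbols were matched for 14094 of 14125 gene IDs, and 16 members overlap a counted gene on the other strand and 4 on the same strand, so their reads may be shared.

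The deposited counts were tested as they stand. Genes were filtered with edgeR's filterByExpr (minimum count 10, minimum total 15), which left 12592, and library sizes were scaled by TMM. One edgeR 4.0.16 quasi-likelihood fit with robust estimation (R 4.3.3) held all 48 libraries in the 4 groups (44 residual degrees of freedom), two-sided, with Benjamini-Hochberg adjustment over all genes and a threshold of 0.05, and a second fit split Cort_CON by the labelled disease state. Levels are CPM on TMM-scaled library sizes, and log2 CPM used a prior count of 2. Correlations were Pearson's and Spearman's over group-centred values, with 100000 permutations within groups, 6 relations adjusted together (Python 3.11.15, numpy 2.4.6, pandas 2.3.3, scipy 1.17.1). Alternatives were DESeq2 1.42.0, limma 3.58.1 (voom), other scalings and filters, only the groups compared, only nondiabetic Cort_CON mice, each library left out, and the replicate number as a block. The fit was tested on simulated data. The pairs of libraries within a group (272) differed by more than sampling noise, with a chi-square of at least 7.59 per degree of freedom. The counts are of reads without molecular identifiers, so precision comes from the spread between libraries.

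The members, the lists and the tests were chosen with earlier results of these data known. The text names 37 members by rule: a core set of well-known genes, per comparison the 6 members with the largest called change, and per family and corticosterone comparison the 2 with the smallest called p. The other members named were chosen after their values were seen.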

Additional observations from a re-analysis of the deposited data

Results flagged for a closer look

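In each group of 5 to 10 libraries, the highest or lowest level of each named member was compared with the gap to its nearest neighbour, at Dixon's critical value for that group size. Of 148 such groups, 21 held a library that stood far from the others, while chance flags about 1 in 20. Cort_CON was taken as its diabetic and nondiabetic parts, and Cort_ATGLi, with 14 libraries, was not examined in this way.

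In EtOH_CON, library p01 gave 12 of these 21 values. It was the lowest of its group for Dnajc1 (12 CPM), Dnajc2 (28.8 CPM), Dnajc21 (47.9 CPM, against 120.8 to 175.9 CPM in the other vehicle mice of that diet) and Dnajc3 (32.8 CPM). The same held for Hsp90aa1 (17.1 CPM), Hsp90ab1 (1319.7 CPM), Hsp90b1 (56.1 CPM), Hspb1 (49.4 CPM) and Hspb2 (30.6 CPM). It was the highest for Dnajb11 (32.8 CPM), Dnajb6 (41.4 CPM) and Hspbp1 (43.8 CPM). With p01 left out, 28 members were called on the control diet, against 29 with it.

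Among the diabetic Cort_CON mice, p30 stood above the rest for Dnajb1 (32.9 CPM, against 4.35 to 9.3 CPM), Hspa1b (47.7 CPM, against 2.56 to 8.43 CPM) and Hsp90aa1 (60.2 CPM, against 28.9 to 40.5 CPM). In the same mice p27 was lowest for Dnajb5 (51.4 CPM) and Hspa12b (1.46 CPM), and p45 was highest for Hspa5 (308.1 CPM). Among the nondiabetic Cort_CON mice, p32 was highest for Hspa2 (7.17 CPM) and p49 lowest for Hsp90b1 (61.8 CPM). In EtOH_ATGLi, p12 was lowest for Hspb6 (1087.5 CPM, against 1310.2 to 1549.6 CPM).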

How the results depend on the processing

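The number of members called on the control diet was 23 to 29 with DESeq2, DESeq2's size factors, limma voom, halved counts, upper-quartile scaling, no filter, a mean of at least 5 CPM, only the groups compared, or with the 3 Cort_CON libraries p29, p30 and p32 or the 3 libraries that stand apart left out. It was 13 with only the nondiabetic Cort_CON mice, a smaller group. On atglistatin it was 20 to 28 under the same choices that apply there. For Cort_ATGLi against Cort_CON it was 2 (both lower) with only the nondiabetic Cort_CON mice and 1 without the 3 libraries that stand apart, against 0. Leaving out 1 library at a time gave 24 to 29 calls on the control diet, 20 to 28 on atglistatin, 0 to 0 for each of the atglistatin comparisons and the interaction, and 0 to 1 between diabetic and nondiabetic mice, where p30 made the difference. Numbers shared between EtOH_ATGLi and EtOH_CON, and between Cort_ATGLi and EtOH_ATGLi, did not mark pairs: deviations of same-numbered libraries correlated at -0.0596 to 0.155. The replicate block, which uses the same-numbered libraries alone, gave 13 calls for Cort_ATGLi against EtOH_ATGLi, and the same libraries without the block gave 12, against 25 with all libraries. Dnajb5 turned in direction there, to 0.63 with the replicate block and 0.63 without it, against -0.16 with all libraries. Dnajb1 on the control diet was -0.0277 without p29, p30 and p32, against 0.67. The correlation of Hspa1a with Hspa8 was 0.331 without the 2 farthest libraries and 0.147 without those 3, against 0.398. Of the values of named members under the first set of alternatives, 2021 kept direction and side of the threshold, 58 lost the call, 17 gained it and 1 reversed, and under those chosen after seeing the data 641, 19, 4 and 2. The causes were not tested. Members near 1 CPM, such as Hspbap1, are limited by depth.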

Other observations

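The other marker lists gave these counts of called genes, first in Cort_CON against EtOH_CON and then in Cort_ATGLi against EtOH_ATGLi. Over all genes, 18.9% were higher and 19.5% lower in Cort_CON, and 15% higher and 15% lower in Cort_ATGLi. Of 7 tendon markers, 5 and 6 were lower and 1 was higher on either diet. Of 10 macrophage markers, 5 and 4 were lower and 1 was higher on either diet. Smooth muscle and pericyte markers were lower for 5 and 2 of 8, Schwann cell markers for 3 and 0 of 8, neutrophil markers for 2 and 1 of 3, and the 1 lymphocyte marker that was tested was lower on both diets. Adipocyte markers were higher for 1 and 2 of 8 and lower for 3 and 0. Erythroid markers were higher for 4 and 1 of 5. Satellite cell markers were higher for 2 and 3 of 5 and lower for 1 on either diet. General muscle fibre markers were higher for 3 and 2 of 6.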
